A study of Mus musculus with 6 samples.

Results

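Insulin lowers blood glucose in part by driving glucose into fat cells. The hormone binds the insulin receptor (Insr), which phosphorylates the docking proteins IRS1 and IRS2. These recruit phosphatidylinositol 3-kinase (PI3K), a dimer of a regulatory subunit such as that encoded by Pik3r1 and a catalytic subunit such as that encoded by Pik3ca. The lipid made by PI3K activates the kinases AKT1 and AKT2. AKT then phosphorylates the Rab GTPase-activating protein encoded by Tbc1d4, which lets vesicles carrying the transporter GLUT4 (Slc2a4) reach the plasma membrane. These 9 genes were picked for their place in this chain, with earlier results of these data known. All 9 were listed under these symbols among the 22609 genes of the files, and all 9 had enough reads to be tested.

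Inguinal fat of male C57BL6 mice aged 3 weeks, by the labels, gave stromal vascular cells that were differentiated into white adipocytes in culture. One group of 3 samples was transfected with miR-182 (the miR-182-5p mimic of the study) and the other 3 received the control. The labels speak of electroporation and a control vector, while the study's methods describe a mimic and mimic control carried by a lipid reagent into cells of slightly older mice. Poly(A) RNA was sequenced, with 25869810 to 28796712 reads counted on genes per sample. Nothing states that the samples of a group came from separate mice or cultures, so the p values measure the spread between these samples, which may be technical. Bulk RNA also cannot separate fewer cells of a type from less RNA per cell.

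In cells with the miR-182-5p mimic, transcripts of Slc2a4 and Irs1 fell most (by 25.9% and 22.9% in mean level), Pik3r1 and Akt1 fell by smaller amounts, and Irs2 rose, when each was measured against all reads on genes. Against the summed level of adipocyte marker transcripts, a scale added after the data were seen, the 4 that fell were not lower, as given at the end. The mean of that sum fell by a larger proportion than that of any of the 9 genes, so none could be lower in mean. Insr, Pik3ca, Akt2 and Tbc1d4 did not pass the test. Of the 9 genes, 5 passed an adjusted p under 0.05 in edgeR's quasi-likelihood test, 4 lower and 1 higher, where 46.7% of all 13117 genes tested passed (23.5% lower and 23.2% higher). Among the 7042 genes expressed at least as highly as Irs2, the lowest of the 9, 58.5% passed (25.5% lower and 33.0% higher). None of the 9 also reached a 1.5-fold change, the second cutoff that the study used, which 7.45% of the genes tested reached together with the adjusted p. A count of 5 of 9 is therefore close to the share of all genes that changed, and the sizes of the changes were modest.

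Mature miRNAs act by pairing bases 2 to 8 of their own sequence (the seed) with matching sites in messenger RNAs, mainly in the 3′-UTR. The sequence of the miRNA and every 7-base match to it in the longest annotated 3′-UTR of the 9 genes are shown. They tell which of these transcripts carry a letter match to miR-182-5p as annotated. The miRNA sequence is that of RefSeq on GRCm38.p6 (chr6:30165962-30165986, minus strand), with the seed in capitals. The study's methods print a different sequence for mouse miR-182-5p, and the study does not give the sequence of the mimic. The 3′-UTR windows come from GENCODE M21 transcripts on GRCm38, with the match in capitals.
miR-182-5p: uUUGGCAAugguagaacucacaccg
Pik3r1 (chr13:101681222-101681251, minus strand): acattccaaaaTGCCAAAttcttctctttc
Pik3ca, upstream match (chr3:32464726-32464755, plus strand): tgtatatattaTTGCCAAcaagaaaaataa
Pik3ca, downstream match (chr3:32465039-32465068, plus strand): gttttcccgagTGCCAAAagaaacaaaaac
Tbc1d4 (chr14:101444337-101444366, minus strand): ccttctggttgTTGCCAActatgtacataa

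Both 7-base forms were searched on the transcribed strand only. TTGCCAA matches bases 2 to 8, while in TGCCAAA the first 6 bases match bases 2 to 7 and the last is an A. The forms overlap in 6 bases. TTGCCAA was found in 2 of the 9 genes (Pik3ca and Tbc1d4), against 13.9% of the 12528 tested genes with an annotated 3′-UTR. TGCCAAA was also found in 2 (Pik3r1 and Pik3ca), against 15.7%. These shares are not matched for length. The median 3′-UTR of the tested genes is 1383 bases, while those of Pik3ca, Pik3r1 and Tbc1d4 have 5655, 4317 and 2178. Neither Slc2a4 nor Irs1, the genes that fell most, holds a 7-base match in its 3′-UTR, which is 826 bases long for Slc2a4 and 4525 for Irs1. The Pik3r1 site lies at position 3640 of 4317, and that transcript was lower with the mimic. The genes with TTGCCAA, Pik3ca and Tbc1d4, did not pass the test of expression. A letter match is a description of these windows and shows neither binding nor its lack.

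Insr (chromosome 8 of GRCm38, 3122061 to 3279617, minus strand) encodes the receptor itself. It was measured at 154.1, 151.1 and 156.9 CPM (counts on a gene relative to all counts on genes in its sample, scaled by the TMM method of edgeR) in control samples 1 to 3 and at 146.3, 158.8 and 163.1 CPM in mimic samples 1 to 3. The groups overlapped, with 1 mimic sample below all controls and 2 above them. The log2 fold change was 0.02 with a 95% interval from -0.06 to 0.10 (edgeR adjusted p = 0.712). The read count cannot separate the receptor's splice forms. Igf1r, the receptor for insulin-like growth factor that shares its downstream chain, had 111.9 ± 3.85 CPM with control and 108.8 ± 3.79 with the mimic (mean ± SD, n = 3 per group), and did not pass the test (edgeR adjusted p = 0.385).

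Irs1 and Irs2 encode docking proteins that carry the signal from the receptor to PI3K, and they moved in opposite directions. Irs1 (chromosome 1, 82233101 to 82291416, minus strand) had 106.5, 109.4 and 108.3 CPM with control and 77.76, 85.17 and 86.92 CPM with the mimic. Every mimic sample lay below every control. The means were 108.1 ± 1.42 and 83.28 ± 4.86 CPM (± SD, n = 3 per group), a log2 fold change of -0.38 (standard error, SE, 0.040, edgeR adjusted p = 3.31e-06). Of the 9144 exon bases of Irs1, 2822 are also covered by Gm9747 on the opposite strand, and the sources used here do not give the strand setting of the counting. Gm9747 is not among the symbols counted.

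Irs2 (chromosome 8, 10984681 to 11008458, minus strand), which can stand in for IRS1 in many tissues, had 21.33, 20.10 and 20.04 CPM with control and 23.81, 24.48 and 25.08 CPM with the mimic. All mimic samples were above all controls. The means were 20.49 ± 0.730 and 24.46 ± 0.636 CPM (mean ± SD, n = 3 per group), with a log2 fold change of 0.26 (SE 0.055, edgeR adjusted p = 0.00157). Only 162 of its 6323 exon bases are shared with a gene on the opposite strand. Within a sample, Irs1 reads outnumbered Irs2 reads 5.25-fold with control and 3.39-fold with the mimic (geometric means, n = 3 each). The log2 ratio differed by -0.63 and the groups did not overlap.

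The third rodent docking protein, Irs3, is known mainly from fat cells and was added to this description after its values were seen. It rose from 15.25 ± 0.894 to 20.37 ± 1.599 CPM (mean ± SD, n = 3 per group, log2 fold change 0.42, edgeR adjusted p = 2.53e-04). Expressed per kilobase of exon, the 3 docking-protein genes together came to 21.58 ± 0.324 CPM per kilobase with control and 21.69 ± 1.23 with the mimic (mean ± SD, n = 3 per group). The totals overlapped, while the makeup shifted. Irs1 supplied 54.8% ± 1.56 of the total with control and 42.0% ± 1.01 with the mimic. Irs3 supplied 30.2% ± 1.32 and 40.2% ± 1.23, and Irs2 15.0% ± 0.340 and 17.9% ± 0.548 (mean ± SD, n = 3 per group).

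PI3K is built from a regulatory and a catalytic subunit. Pik3r1 (chromosome 13, 101680563 to 101768217, minus strand), which encodes the main regulatory subunit in its long and short forms, had 304.5, 315.3 and 293.1 CPM with control and 257.8, 274.3 and 277.0 CPM with the mimic. The groups did not overlap. Its log2 fold change was -0.17 (SE 0.035, edgeR adjusted p = 9.49e-04), a fall of 11.4% in mean CPM. Pik3ca (chromosome 3, 32397671 to 32468486, plus strand), which encodes the catalytic subunit p110α, had 79.87, 79.87 and 82.30 CPM with control and 74.09, 78.95 and 80.12 CPM with the mimic. Only the highest mimic sample exceeded the lowest control, and the log2 fold change of -0.05 did not pass the test (95% interval -0.13 to 0.03, edgeR adjusted p = 0.253). Of the reads per kilobase on 3 regulatory-subunit genes, Pik3r1 gave 54.2% ± 1.02 with control and 48.6% ± 1.08 with the mimic (mean ± SD, n = 3 per group), the rest falling to Pik3r2 and Pik3r3. Of the exon bases of Pik3r3, 24.3% are shared with another gene on the same strand.

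AKT1 and AKT2 are close relatives, and AKT2 is the form best known for glucose uptake in fat and muscle. Akt1 (chromosome 12, 112653821 to 112674884, minus strand) had 333.8, 328.5 and 329.8 CPM with control and 309.7, 305.8 and 304.3 CPM with the mimic. The groups did not overlap, although the fall was the smallest of the 4, at -0.11 on the log2 scale (SE 0.026, edgeR adjusted p = 0.00337). Akt2 (chromosome 7, 27591552 to 27640826, plus strand) had 97.82, 94.34 and 91.84 CPM with control and 93.38, 97.39 and 94.78 CPM with the mimic. These values were interleaved, with a log2 fold change of 0.01 and a 95% interval from -0.06 to 0.08 (edgeR adjusted p = 0.872). That interval is far inside a 1.5-fold change, which is 0.585 on the log2 scale. Per kilobase of exon, Akt1 made up 79.0% ± 0.112 of the 3 Akt genes with control and 76.9% ± 0.443 with the mimic (mean ± SD, n = 3 per group).

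Tbc1d4 (chromosome 14, 101442360 to 101609191, minus strand) encodes the AKT substrate that restrains GLUT4 vesicles until it is phosphorylated. Its level was 64.07, 71.64 and 68.58 CPM with control and 62.00, 69.38 and 74.42 CPM with the mimic. The groups overlapped, with the lowest and the highest of the 6 values both in the mimic group. The log2 fold change was 0.01 (95% interval -0.12 to 0.14, edgeR adjusted p = 0.907). Its relative Tbc1d1, better known from muscle, rose from 45.27 ± 1.80 to 55.93 ± 1.73 CPM (mean ± SD, n = 3 per group), a log2 fold change of 0.31 (edgeR adjusted p = 6.34e-05).

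Slc2a4 (chromosome 11, 69942539 to 69948188, minus strand) encodes GLUT4, the transporter that insulin moves to the surface of fat and muscle cells. It had 3855, 4091 and 3645 reads with control and 2783, 3046 and 3411 with the mimic, which is 151.4, 156.6 and 139.6 CPM against 95.33, 115.6 and 120.8 CPM. Every mimic sample was below every control, and mimic sample 1 was the lowest. The mean fell from 149.2 ± 8.71 to 110.6 ± 13.5 CPM (mean ± SD, n = 3 per group), by 25.9%. The log2 fold change of -0.43 (SE 0.067, 95% interval -0.58 to -0.29, edgeR adjusted p = 1.11e-04) was the largest of the 9 in size and exceeded those of 84.8% of all genes tested. The 3 genes whose patterns over the 6 samples lay nearest to that of Slc2a4, by Euclidean distance of centred log2 CPM, were Tmem120b (0.095), Cxx1c (0.107) and Acacb (0.109).

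**Figure D1:**
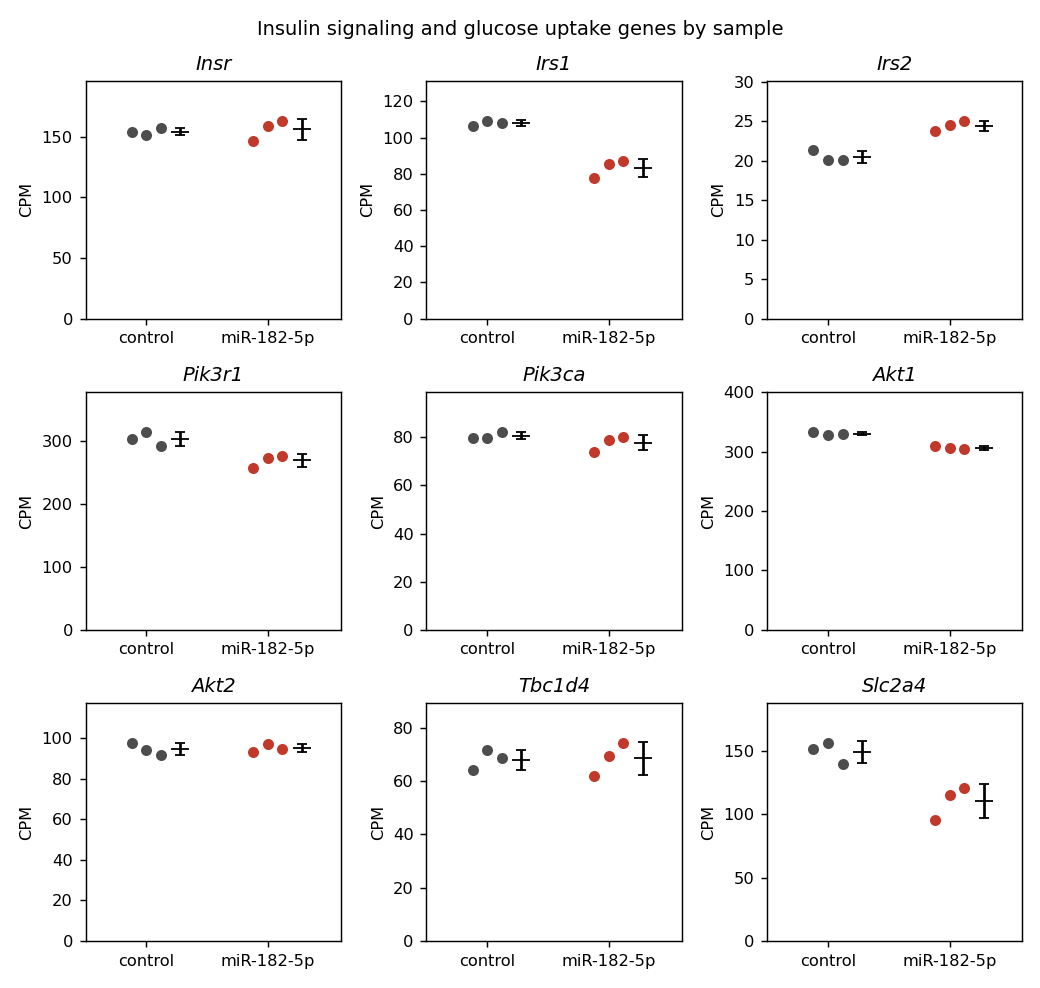
Normalized expression (CPM, linear axis from 0) of the 9 genes in each of the 6 samples, where grey points are control, red points are the miR-182-5p mimic, and the black mark with bars is the mean ± SD of 3 samples. Relative to all reads on genes, mimic samples of Irs1, Pik3r1, Akt1 and Slc2a4 all sit below the controls and those of Irs2 above. Relative to the summed adipocyte markers, a scale added after the data were seen, none of Irs1, Pik3r1, Akt1 and Slc2a4 was lower. That sum fell by a larger proportion than any of the 9 genes.

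The basal glucose transporter GLUT1 (Slc2a1), which works without insulin, went the other way. Slc2a1 had 118.7, 117.0 and 115.0 CPM with control and 170.9, 154.7 and 151.4 CPM with the mimic, all of them above the controls (log2 fold change 0.44, SE 0.041, edgeR adjusted p = 8.14e-07). Per kilobase of exon, Slc2a4 stood at 42.90 ± 2.51 CPM per kilobase and Slc2a1 at 33.34 ± 0.528 with control, and their order was reversed with the mimic, at 31.79 ± 3.87 and 45.35 ± 2.98 (mean ± SD, n = 3 per group). Summed per kilobase over the 10 Slc2a genes with enough reads, the total was 94.74 ± 2.82 with control and 92.14 ± 1.18 with the mimic (mean ± SD, n = 3 per group), and the groups overlapped. The share of that total from Slc2a4 was 45.3% ± 1.38 and 34.5% ± 3.80, and that from Slc2a1 was 35.2% ± 0.649 and 49.3% ± 3.85. Slc2a4 led the family in every control sample and Slc2a1 in every mimic sample.

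**Figure D2:**
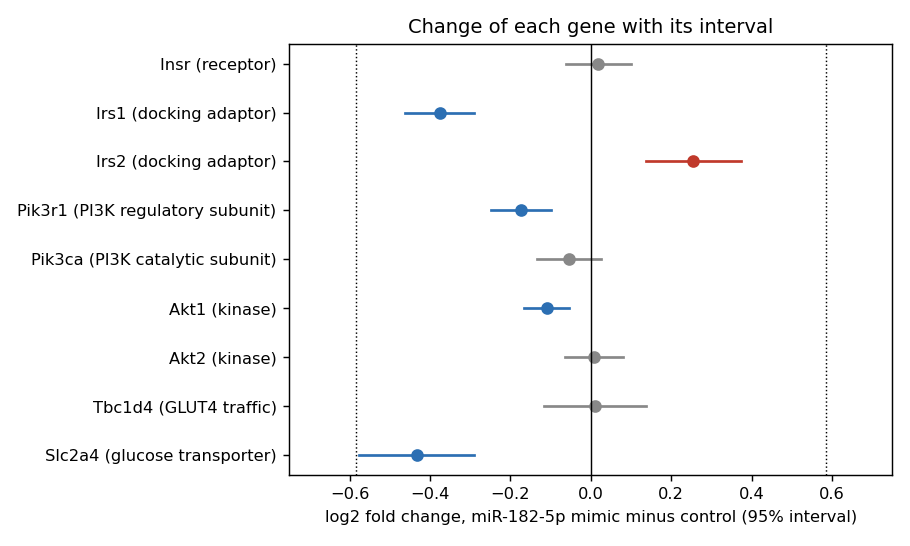
Log2 fold change of each gene (mimic minus control, relative to all reads on genes) as a point with its 95% interval from edgeR, blue for lower and red for higher at an adjusted p under 0.05, grey otherwise, and dotted lines at 1.5-fold. All 9 intervals lie inside the dotted lines, and those of Insr, Pik3ca, Akt2 and Tbc1d4 include 0. The 4 blue genes were not lower relative to the summed adipocyte markers, a scale added after the data were seen. That sum fell by a larger proportion than any of the 9 genes.

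Groups that do not overlap were common in these data: 54.8% of all genes tested had none (27.5% lower and 27.3% higher), and so did 5 of the 9 genes. Ratios within a sample cancel library size and normalization. For 6 pairs of related genes the log2 ratio was compared by an exact permutation test, two-sided, in which 3 samples against 3 cannot give a p below 0.1. The mean Slc2a4/Slc2a1 log2 ratio was 0.35 ± 0.070 with control and -0.53 ± 0.27 with the mimic, the Irs1/Irs2 ratio 2.39 ± 0.068 and 1.76 ± 0.051, and the Tbc1d4/Tbc1d1 ratio 0.59 ± 0.079 and 0.29 ± 0.17 (mean ± SD, n = 3 per group). The Pik3r1/Pik3ca and Akt1/Akt2 log2 ratios differed by -0.12 each. In these 5 pairs the groups did not overlap (exact permutation p = 0.1 each, 0.12 after Benjamini-Hochberg adjustment over 6 pairs), so none could pass the threshold. The Insr/Igf1r ratio overlapped between the groups, with a difference of 0.06 (exact permutation p = 0.4).

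**Figure D3:**
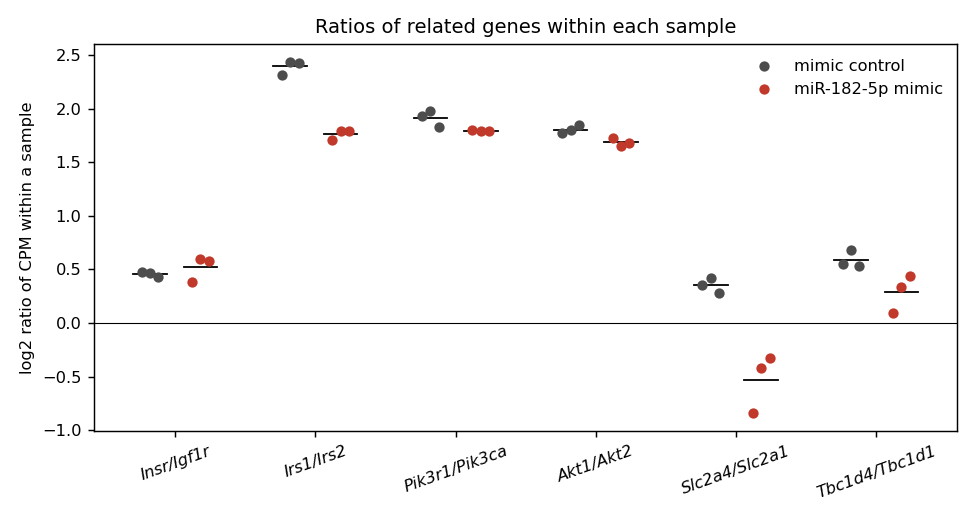
Log2 ratio of the CPM values of 2 related genes within each sample, with control in grey, mimic in red, and a black line at each group's mean of 3 samples. The groups are apart for every pair but Insr/Igf1r, and Slc2a4/Slc2a1 is above 0 in the 3 controls and below 0 in the 3 mimic samples.

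Compared per kilobase of all annotated exon bases of a gene, the order of the 9 genes with control ran from Akt1 (80.70 CPM per kilobase) through Slc2a4, Pik3r1 (30.19), Akt2 (13.28), Irs1 (11.82), Insr (11.21), Pik3ca (8.88) and Tbc1d4 (8.87) to Irs2 (3.24). On this length all neighbours had separate ranges apart from Pik3ca and Tbc1d4. With the mimic, Irs1 (9.11) stood below Insr (11.35). The order depends on the length used: per kilobase of the longest transcript, Insr was above Irs1 in both groups (16.47 against 11.82 with control, 16.68 against 9.11 with the mimic), and Slc2a4 (43.72 to 49.04) and Pik3r1 (41.21 to 44.33) overlapped with control. Per kilobase of all exon bases with the mimic, Slc2a4 and Pik3r1 (26.76) overlapped, as did Irs1, Tbc1d4 (8.94) and Pik3ca (8.55), each with its neighbour.

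The wider pathway was read from 7 lists with 124 genes, of which 114 were tested. At an adjusted p under 0.05 in edgeR, 39 of these were higher and 40 lower (69.3% in all), and 10 also reached 1.5-fold. Of all genes tested, 46.7% passed, 23.2% higher and 23.5% lower, and the counts of each list are to be read against these shares. Among the 7042 genes expressed at least as highly as Irs2, 58.5% passed (33.0% higher and 25.5% lower). Not every list gene reached that level, and the lists were chosen with earlier results of these data known. The median log2 fold change of the 114 genes was 0.03, against 0.00 for all genes tested. No direction was shared across the pathway.

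Among 16 tested genes that act next to the receptor, 8 rose and 3 fell. Shc1, an adaptor that leads from receptor tyrosine kinases to Ras, fell from 151.6 ± 4.83 to 86.37 ± 1.80 CPM (mean ± SD, n = 3 per group, log2 fold change -0.81, edgeR adjusted p = 1.59e-10). Grb2, which binds SHC and the SOS exchange factors, had a log2 fold change of -0.39, and the adaptor gene Sh2b2 of -0.25. Sos2, one of the exchange factors for Ras, rose by 0.75 on the log2 scale. Crk and Rapgef1, an adaptor and an exchange factor that work together, rose by 0.37 and 0.29.

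Of 19 tested genes that restrain the signal, 7 rose and 5 fell. Ptpn1, which encodes the phosphatase PTP1B that removes phosphate from the insulin receptor, fell from 60.22 ± 1.81 to 39.14 ± 2.23 CPM (mean ± SD, n = 3 per group, log2 fold change -0.62, edgeR adjusted p = 1.54e-07). Enpp1, which encodes an inhibitor of the receptor, and Inpp5k, a phosphatase of the PI3K product, had log2 fold changes of -0.76 and -0.30. Trib2, a Tribbles pseudokinase gene, rose by 0.71 on the log2 scale. The value for Ppp2ca, a catalytic subunit of protein phosphatase 2A, was 0.28, and 41.3% of its exon bases are covered by other genes on the opposite strand.

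Of 22 tested genes of the PI3K, AKT and mTOR steps, 11 rose and 4 fell, none by 1.5-fold. Both genes of the AKT substrate GSK3 rose (Gsk3b by 0.28 and Gsk3a by 0.17 on the log2 scale), as did the related kinase gene Sgk1 (0.35). Of the exon bases of Gsk3a, 28.3% are covered by another gene on the opposite strand. The genes with the smallest p among those that fell were Pik3cb (-0.31), a second catalytic subunit, Eif4ebp1 (-0.18), a translational repressor controlled by mTOR, and Akt1s1 (-0.12), which encodes an AKT substrate within the mTOR complex.

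All 25 genes of GLUT4 vesicle traffic were tested, 9 higher and 9 lower, none by 1.5-fold. The motor protein gene Myo1c fell from 554.7 ± 11.3 to 384.5 ± 2.49 CPM (mean ± SD, n = 3 per group, log2 fold change -0.53, edgeR adjusted p = 2.59e-09). Rac1, a GTPase of actin remodelling, fell from 227.3 ± 1.53 to 164.7 ± 3.69 CPM and Rab10, a GTPase on GLUT4 vesicles and a substrate of the TBC1D4 protein, from 189.7 ± 3.67 to 151.9 ± 3.10 CPM (mean ± SD, n = 3 per group). Of the exon bases of Rac1, 51.4% are covered by Daglb on the opposite strand, and the strand setting of the counting is not given. Rab8b rose by 0.51 and the clathrin heavy chain gene Cltc by 0.14 on the log2 scale. The 3′-UTRs of Rab10 and Rac1 each hold the 8-base match to the miRNA, TTGCCAAA, which is present in 5.70% of the tested genes with a 3′-UTR and in none of the 9 genes above. Among the tested genes of the 7 lists, it was found in 3 that fell (Rab10, Rac1 and Pdk4), in 2 that rose (Bnip3 and Pik3r3) and in 5 that did not pass (Gab2, Igf1r, Prkci, Slc2a12 and Snap23). Myo1c holds both 7-base forms.
Rab10 (chr12:3248001-3248030, minus strand): aaaaagcagcaTTGCCAAAtaacccctgat
Rac1 (chr5:143506688-143506717, minus strand): cagattaaaaaTTGCCAAAataccttctga

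Across the 7 lists, either 7-base form was present in 17 of 40 genes that fell (42.5%), in 7 of 38 that rose and had an annotated 3′-UTR (18.4%), and in 11 of 35 that did not pass (31.4%). Over all genes tested the same shares were 32.2% (967 of 3004), 18.2% (544 of 2989) and 1305 of 6535. Whatever the call, either form was present in 31.0% of the tested list genes with a 3′-UTR and in 22.5% of all such genes. These shares are not matched for 3′-UTR length. For the 9 genes the counts were 1 of 4 that fell, 0 of 1 that rose and 2 of 4 that did not pass.

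Of the other glucose transporter genes, 9 were tested, and beside Slc2a1, which rose, Slc2a10 (log2 fold change -0.50), Slc2a8 (-0.36) and Slc2a5 (-0.98) fell. Slc2a5, the fructose transporter, rests on 8 to 30 reads per sample. The number of transporter genes that fell was 2 in place of 3 with DESeq2, with at least 10 reads required in every sample, without control sample 1 and without mimic sample 3. Of 11 tested genes that the FoxO factors switch on when insulin is low, 6 fell and 2 rose, while 4 fell without control sample 1 and 1 rose without mimic sample 1. Pdk4, which encodes a brake on pyruvate oxidation, fell from 49.55 ± 1.57 to 28.25 ± 1.63 CPM (mean ± SD, n = 3 per group, log2 fold change -0.81, edgeR adjusted p = 2e-08), while Txnip and Klf15 had values of -0.47 and -0.48, and Bnip3 and Fbxo32 rose by 0.36 and 0.25. Other genes on the opposite strand cover 19.4% of the exon bases of Txnip and 22.3% of those of Bnip3. Of the 12 genes that insulin induces on the way from glucose to fat, 10 fell and 1, the hexokinase gene Hk2, rose by 0.28. Thrsp, a regulator of lipid synthesis, fell from 610.9 ± 36.5 to 255.0 ± 31.6 CPM (mean ± SD, n = 3 per group, log2 fold change -1.26, edgeR adjusted p = 3.09e-09), and the genes next by p were Me1 (-0.63) and Acacb (-0.49), which encode malic enzyme and an acetyl-CoA carboxylase.

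**Figure D4:**
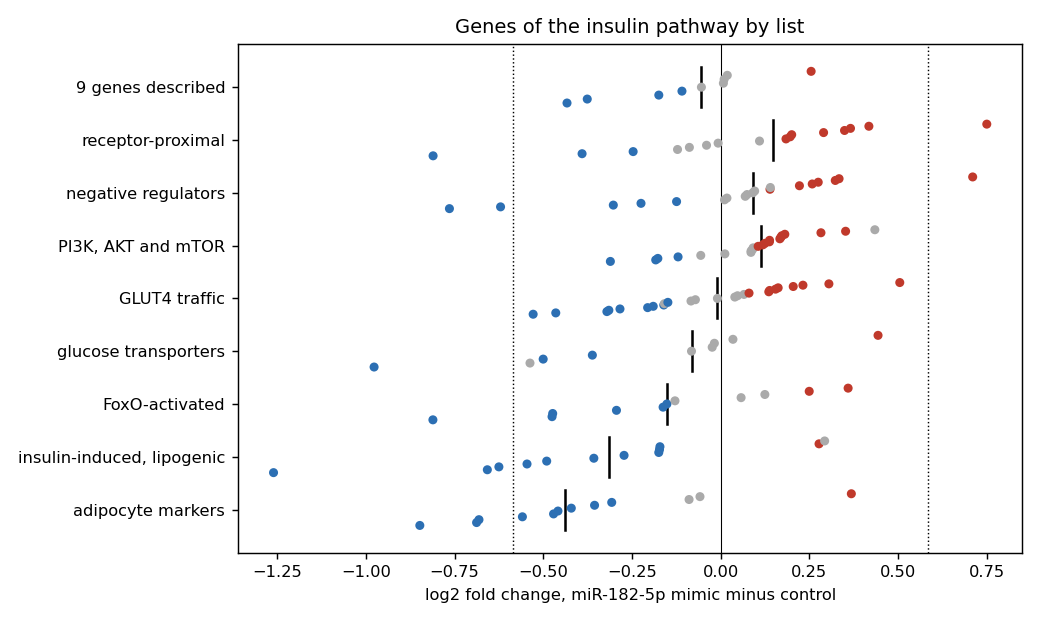
Log2 fold change (mimic minus control, relative to all reads on genes) of each tested gene by list, with 1 point per gene, blue for lower and red for higher at an adjusted p under 0.05 in edgeR, grey otherwise, a black bar at each list's median, and dotted lines at 1.5-fold. Among the lists drawn, the medians of the adipocyte markers (-0.44) and of the lipogenic genes (-0.32) lie lowest, while those of the receptor-proximal and PI3K lists are above 0.

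Most adipocyte markers fell, as did Slc2a4 and Irs1, but not all of them. Of 12 markers, 9 fell and 1 (the leptin gene Lep) rose, where 23.5% of all genes tested fell and 23.2% rose. The markers Plin1 and Lipe did not pass, with log2 fold changes of -0.06 and -0.09 (edgeR adjusted p = 0.316 and 0.0801). The summed level of the 12 markers ranged from 14020 to 14810 CPM with control and from 9605 to 10850 with the mimic. Adipoq, which encodes adiponectin, fell from 928.3 ± 20.6 to 675.5 ± 56.0 CPM (mean ± SD, n = 3 per group). Markers of fat cell progenitors were split, with 5 of 7 tested lower and 1 (Thy1) higher. Their sum was 2172 to 2222 CPM with control and 1920 to 2066 with the mimic. Pdgfra (mean 449.5 to 247.8 CPM) and Ly6a (460.7 to 361.1) fell. The most abundant with control, Pdgfrb (705.1 to 733.0, not passing) and Thy1 (524.1 to 596.2), did not fall. Macrophage markers came to 12.43 to 15.76 CPM in sum over all 6 samples (1 of 4 tested fell), with Ptprc, Emr1, Itgam and Mrc1 near 0. Endothelial markers came to 8.89 to 10.03 CPM with control and 5.47 to 6.27 with the mimic (1 of 4 tested fell). The lower sum came mainly from that gene, Tek (mean 6.05 CPM with control and 2.43 with the mimic). Kdr had 1.59 and 2.14 CPM and did not pass. Of 4 erythroid markers, 3 were at 0 and the 1 tested did not pass. The skeletal muscle markers, a tissue rich in GLUT4, had Myh4, Ckm and Myod1 at 0 reads in every sample, with nearly all of their sum (19.41 to 19.58 CPM with control, 29.11 to 33.61 with the mimic) from Acta1, which rose. The part of these shifts in the results for the 9 genes was not tested.

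Set against the adipocyte markers in the same sample, the 9 genes looked different. Per 1000 CPM of the 12 markers, Slc2a4 stood at 10.68, 10.57 and 9.96 with control and at 9.93, 11.27 and 11.13 with the mimic, and the groups overlapped. Irs1 stood at 7.54 ± 0.173 and 8.14 ± 0.152, Pik3r1 at 21.2 ± 0.287 and 26.4 ± 0.735, and Akt1 at 23.1 ± 0.786 and 30.03 ± 2.11 (mean ± SD, n = 3 per group). On this scale every mimic sample was above every control for each of the 9 genes but Slc2a4. The marker sum was itself lower with the mimic (9605 to 10850 CPM, against 14020 to 14810 with control). Its mean fell by a larger proportion than that of any of the 9 genes, Slc2a4 and Irs1 included. All 9 genes therefore come out higher in mean by the division alone, whether or not they changed in CPM. Single markers differed: Plin1 (662.5 to 636.4 CPM) and Lipe (662.0 to 622.4 CPM) fell by less than Slc2a4 and Irs1, while others such as Fabp4 fell by more. This scale was chosen after the data were seen, and its denominator is set mainly by the highest markers, such as Lpl and Fabp4.

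The summed level of interferon-response genes differed between samples of the same group, with 60.22 to 174.9 CPM in sum with control and 134.2 to 370.3 with the mimic, highest in mimic sample 1. Of 8 such genes, 4 rose, where 23.2% of all genes tested did. The groups overlapped for Isg15, Oas1a and Rsad2, and of the 4 only Usp18 had every mimic sample above every control. The part of these genes in the results was not tested. Each of the 4 was highest in mimic sample 1. That sample also had the lowest adipocyte marker sum and the lowest value within its group for 8 of the 9 genes, all but Akt1 and including Irs2, which rose. Without it the log2 fold changes of Slc2a4 and Irs1 were both -0.33, with adjusted p values of 5.98e-06 and 6.89e-07 (edgeR), and those of Pik3r1 and Akt1 were -0.14 and -0.12.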

How the data were processed

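RNA-Seq of 6 samples (3 with miR-182-5p mimic, 3 with control) was used. The deposited files hold raw read counts per gene symbol, made by the authors from stranded poly(A) libraries. The submitters' processing notes name bcl2fastq, TopHat2, HTSeq and the build mm9, without versions, and the strand setting of the counting is not given in the sources used here. The 5 closing tally lines of each file, which include 12.7% to 13.0% of uniquely aligned reads outside genes, were left out.

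Counts were tested in R 4.3.3 with edgeR 4.0.16 (TMM, filterByExpr with a minimum count of 10, glmQLFit, glmQLFTest, two-sided), with Benjamini-Hochberg adjustment over 13117 genes. The fit was first tried on simulated data. A pseudocount of 0.1 CPM preceded log2 ratios. Intervals cover 95%.

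Symbols matched GENCODE M21 on GRCm38, another build than mm9, for 12986 of the genes tested, 1141 by an older symbol. Coordinates, exon lengths and 3′-UTRs are from that annotation, and no mm9 coordinates were used. Levels and shares per kilobase divide counts made on mm9 by exon lengths on GRCm38. The exons counted may thus differ from those whose length was used. Figures used matplotlib 3.10.9.

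Replicate numbers were checked for pairing. Same-numbered samples had correlations of deviations from -0.185 to -0.0436, so no block was used. Replicates of a group were not copies, with a chi-square per degree of freedom of 2.13 to 7.19.

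Genes named are the 9 members, up to 3 higher and 3 lower per list by p among those past an adjusted p of 0.05, ratio partners, and the nearest patterns to Slc2a4. A gene that this rule names is not reported here. Members and lists were chosen with earlier results of these data known. Alternatives were DESeq2 1.42.0, limma 3.58.1 with voom, other size factors and filters, the replicate block, leaving out each sample, other fold cutoffs, pseudocounts, lengths and site forms, and, added after seeing the data, scaling to adipocyte markers. Proteins were not analysed here.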

Additional observations from a re-analysis of the deposited data

How the results depend on the processing

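The 5 calls at an adjusted p under 0.05 (Slc2a4, Irs1, Pik3r1 and Akt1 lower, Irs2 higher) and the 4 genes without a call were unchanged in each of the 13 alternative fits, which were DESeq2, limma-voom, 2 other scalings, 2 other filters, the replicate block and the 6 fits without 1 sample. With the replicate block the log2 fold changes were -0.44 for Slc2a4, -0.38 for Irs1, 0.26 for Irs2, -0.17 for Pik3r1 and -0.11 for Akt1, so the block changed no call among the 9 genes. Leaving out 1 sample gave -0.50 to -0.33 for Slc2a4, -0.40 to -0.33 for Irs1 and 0.24 to 0.28 for Irs2. None of the 9 genes reached both cutoffs in any of these fits. Among all genes tested, those called by both cutoffs numbered 60 higher and 220 lower at 2-fold, and 52 higher and 246 lower with edgeR's glmTreat against 1.5-fold, against 258 and 719.

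The summed adipocyte markers fell by a larger proportion than any of the 9 genes. Against that sum, the log2 ratio of group means turned positive for the genes that were lower. It was 0.11 for Irs1, 0.31 for Pik3r1, 0.38 for Akt1 and 0.050 for Slc2a4. This scaling was added after seeing the data. The cause was not tested. Of the 9 genes, 0 held the 8-base site and 4 the 6-base site, in place of 2. Among the tested genes with a 3′-UTR, 5.70% held the 8-base site and 37.9% the 6-base site. With the longest transcript as length, control levels were 16.47 (Insr), 42.78 (Pik3r1), 9.05 (Pik3ca), 122.9 (Akt1), 20.83 (Akt2), 10.5 (Tbc1d4) and 46.73 (Slc2a4) CPM per kilobase. Insr was then above Irs1 (11.82) in control samples too, so their change of order was not seen. Of the counts by list, 1 moved by over 1.5 times: the FoxO genes that rose numbered 1 in place of 2 without mimic sample 1. The ratios kept their direction with a pseudocount of 1 and with unnormalized counts. With 3 samples a group, permutation tests could not pass the threshold.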
